A study of Mus with 8 samples.

Results

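The genes described here are 9 imprinted genes with roles in growth: H19, Meg3, Cdkn1c and Grb10, which are expressed mainly from the maternal copy, and Dlk1, Peg3, Mest, Plagl1 and Ndn, which are expressed from the paternal copy. They were chosen by name, and their probes were those whose RefSeq transcript, as the array files give it, belongs to one of the 9 genes. This gave 16 probes of 56605 on the array, and all 9 genes were among the 31281 genes tested. A further 44 imprinted genes served as the pathway list, of which 34 could be tested.

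MC38 is a mouse colon carcinoma cell line, and MC38 cells were grown as subcutaneous tumours for 25 to 30 days in mice of 2 kinds. The Ext1S100a4Cre hosts (4 tumours) carried Ext1 flox/flox with S100a4-Cre, and the WT hosts (4 tumours) were wild type. Both kinds of host are labelled B6, and the labels give no age and no sex. All 8 tumours shared the same implanted MC38 cells, in which the floxed allele and the Cre are not present, so any deletion lies in host cells. The S100a4 promoter is known to be active in fibroblasts and also in some immune cells, hosts with the floxed allele or the Cre alone were not analysed here, and the labels do not say whether each tumour came from a separate mouse. The p-values therefore measure only the spread between these tumours. Each tumour was one array, read in 1 colour (Cy3), and its RNA was that of the whole tumour, cancer and host cells together. In such samples fewer cells of a type and less RNA per cell cannot be told apart.

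An imprinted gene is read wholly or mainly from 1 parental chromosome. The parental copies were marked differently in the germ line, usually through DNA methylation at a control region shared by a cluster of genes. Many imprinted genes act on growth before and after birth: several paternally expressed ones favour growth, and several maternally expressed ones restrain it. Most are high in the embryo, fall after birth, and stay on in mesenchymal and muscle precursor cells, endocrine cells and parts of the brain. A 1-colour array sums both parental copies and says nothing about which of them was read.

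Levels are log2 of the processed signal minus the array's own 75th percentile of it, so that 0 is the brightness below which 75% of the spots on that array lie. Differences are the mean of the Ext1S100a4Cre tumours minus the mean of the WT tumours on that log2 scale, and the test was limma's across all 31281 genes with Benjamini-Hochberg adjustment. Each probe binds with its own strength, so levels were compared between tumours and not between genes.

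The scanner's 75th percentile lay between 846.9 and 1138 intensity units in the Ext1S100a4Cre tumours and between 1029 and 1265 in the WT tumours, and 65.66% to 70.88% of probes in the Ext1S100a4Cre tumours and 68.84% to 71.1% in the WT tumours were well above background. Ext1S100a4Cre tumours 1 and 4 were the lowest of the 8 on both, at 854.8 and 846.9 units and 65.66% and 65.96% of probes. The part of these dimmer arrays in the levels of those tumours was not tested. The tumours were first checked for what the labels call them. Of 14 markers of epithelial tumour cells, 13 were well above background on all 8 arrays, and their mean differed by 0.14 between hosts. Ext1 had levels of -0.62, -0.27, -0.54 and -0.42 in the Ext1S100a4Cre tumours, against -0.55, -0.28, 0.24 and -0.14 in the WT tumours, which overlap (difference -0.28, SE 0.18; limma, adjusted p = 0.747). Since the implanted cells keep Ext1 and the place of this probe relative to the floxed part is not given, it checks the labels poorly. Libraries that stood apart are described beside the results they touch: 2 Ext1S100a4Cre tumours with high muscle markers (2 and 3), and 2 with Y-linked genes near background (1 and 4).

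None of the 9 imprinted genes differed between hosts after adjustment, and none was separated between the groups. Meg3, a maternally expressed long non-coding RNA, came nearest, with a mean 3.28-fold lower in the Ext1S100a4Cre tumours. Ndn, Mest and Dlk1 also had lower means there. On the probe that stood for each gene, Meg3 and these 3 genes spanned more than 20-fold among the 8 tumours, and their groups overlapped. H19, Cdkn1c and Plagl1 were bright in all 8 tumours and differed by less than the spread between tumours. What the data show most plainly is this spread between single tumours: the first Ext1S100a4Cre tumour was the lowest of all 8 for H19, Meg3, Mest, Grb10 and Ndn, and Ndn and Grb10 followed the level of fibroblast markers closely across tumours.

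In counts, 6 of the 9 genes had a lower mean in the Ext1S100a4Cre tumours and 3 a higher one, beside a lower mean in 41.9% and a higher mean in 58.1% of all genes tested. The median difference of the 9 genes was -0.73, against 0.05 over all genes, and was that of Grb10, read by a dim probe. It was -0.16 without Ext1S100a4Cre tumour 1, -1.17 without Ext1S100a4Cre tumour 2, -0.33 without Ext1S100a4Cre tumour 3, -0.32 without WT tumour 2, -0.23 without WT tumour 3 and -1.11 without WT tumour 4, and -0.22 with normexp background correction, so its size depended on single tumours and on the background correction. With limma, 0 of 9 passed an adjusted p of 0.05, as did 0% of all genes, and 1 (Meg3, lower) had an unadjusted p under 0.05, where 2.16% of all genes were lower and 4.39% higher at that level, 6.55% in either direction. No member was free of overlap between groups, which 1.14% of all genes were in the lower direction and 3.4% in the higher. The counts by parental copy were close: 3 of the 4 maternally expressed genes and 3 of the 5 paternally expressed genes had a lower mean in the Ext1S100a4Cre tumours.

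**Figure D1:**
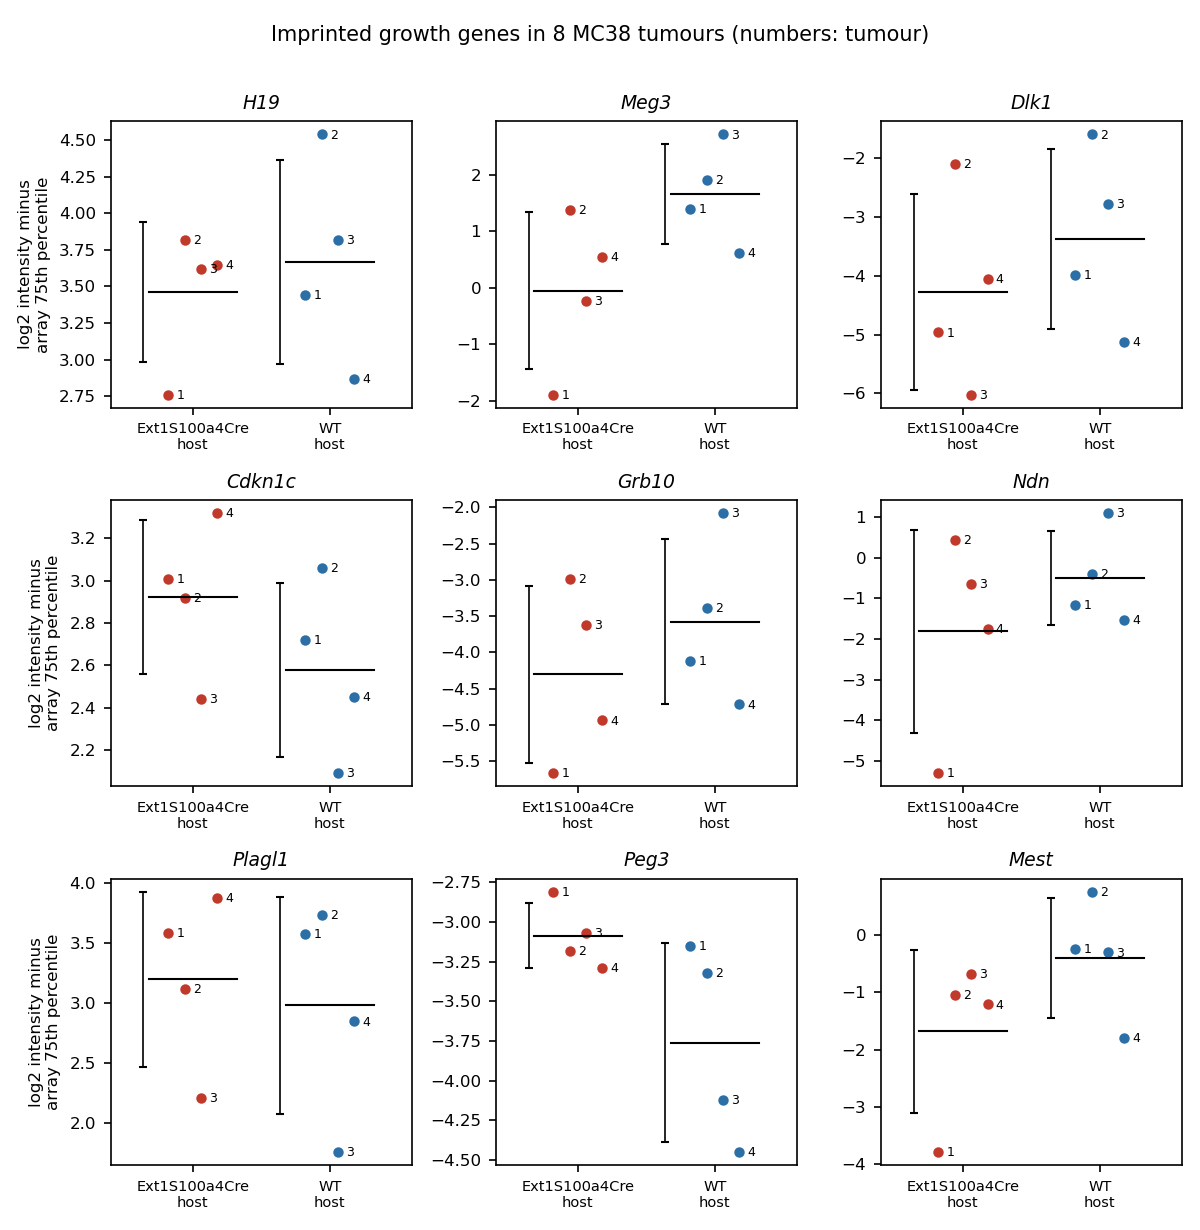
Each panel plots 1 imprinted gene, with the level (log2 processed signal minus the array's 75th percentile) of the 4 Ext1S100a4Cre tumours at left and of the 4 WT tumours at right. Points are tumours marked with their number, horizontal lines are group means and vertical bars the mean ± SD, and the groups overlap in all 9 panels, with the widest spread for Ndn (-5.30 to 1.10).

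Among the maternally expressed genes, Meg3 lies on chromosome 12 beside Dlk1 and is transcribed from the maternal copy at the head of a long run of non-coding RNAs that includes Rian and Mirg, and Meg3 RNA is known to restrain cell growth in several cell types. Its levels were -1.89, 1.38, -0.24 and 0.54 in the Ext1S100a4Cre tumours, against 1.39, 1.91, 2.71 and 0.62 in the WT tumours. The lowest WT tumour (4) and the highest Ext1S100a4Cre tumour (2) fell inside the other group's range, and the other 3 Ext1S100a4Cre tumours were below every WT tumour. The means were -0.05 ± 1.39 in the Ext1S100a4Cre tumours and 1.66 ± 0.88 in the WT tumours (SD, n = 4 each). The difference was -1.71 (SE 0.72, 95% interval -3.36 to -0.06), with limma p = 0.0435 and adjusted p = 0.747, and the exact permutation test over the 70 assignments gave p = 0.0571, where 0.0286 is the smallest this design allows.

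Other Meg3 probes gave the same picture within their own scales. The first read -5.22, -2.18, -4.34 and -3.53 in the Ext1S100a4Cre tumours, against -2.10, -1.65, -0.98 and -2.90 in the WT tumours, a difference of -1.91 (SE 0.66; limma, adjusted p = 0.771 when every probe is tested by itself). The next read -5.74, -2.80, -3.51 and -3.05, against -1.93, -1.47, -0.35 and -3.17 in the WT tumours, a difference of -2.05 (SE 0.77; adjusted p = 0.771). On both, Ext1S100a4Cre tumour 1 was lowest and WT tumour 3 was highest of the 8, as on the brightest probe. The last of the 4 probes was well above background in 0 of 4 Ext1S100a4Cre tumours and in 2 of 4 WT tumours and was not tested. Without Ext1S100a4Cre tumour 1 the Meg3 difference was -1.10, and without both that tumour and WT tumour 3 it was -0.75.

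H19, on chromosome 7, is a maternally expressed long non-coding RNA that is abundant in the embryo, gives rise to a microRNA, and shares its control region and enhancers with Igf2. It was bright in every tumour, at 2.76, 3.82, 3.62 and 3.65 in the Ext1S100a4Cre tumours, against 3.44, 4.54, 3.82 and 2.87 in the WT tumours. The groups overlapped almost fully, the lowest value being Ext1S100a4Cre tumour 1 and the highest WT tumour 2. The difference was -0.21 (SE 0.38, 95% interval -1.08 to 0.66; limma, adjusted p = 0.887).

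Cdkn1c, also on chromosome 7, encodes a cyclin-dependent kinase inhibitor that holds cells out of division during development. It read 3.01, 2.92, 2.44 and 3.32 in the Ext1S100a4Cre tumours, against 2.72, 3.06, 2.09 and 2.45 in the WT tumours. The highest and the lowest tumour differed 2.35-fold, which made it the steadiest of the 9 genes across tumours. The difference was 0.34 (SE 0.26, 95% interval -0.25 to 0.93; limma, adjusted p = 0.757).

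Grb10, on chromosome 11, encodes an adaptor that binds the insulin and IGF receptors and dampens their signal, and it is expressed from the maternal copy in most tissues and from the paternal copy in neurons. Its levels were -5.67, -2.99, -3.62 and -4.94 in the Ext1S100a4Cre tumours, against -4.12, -3.39, -2.08 and -4.72 in the WT tumours. Ext1S100a4Cre tumours 1 and 4 were the lowest of the 8 and WT tumour 3 the highest, with the other 5 tumours mixed between them. The difference was -0.73 (SE 0.73, 95% interval -2.40 to 0.94; limma, adjusted p = 0.795). It was -0.27 without Ext1S100a4Cre tumour 1, -1.17 without Ext1S100a4Cre tumour 2, -0.23 without WT tumour 3, -1.11 without WT tumour 4 and -0.22 with normexp background correction. A dimmer Grb10 probe was well above background in 1 Ext1S100a4Cre tumour and 2 WT tumours and was not tested.

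Among the paternally expressed genes, Dlk1 encodes a membrane and secreted protein with EGF-like repeats that keeps preadipocytes from maturing and marks immature mesenchymal and muscle cells. Its levels were -4.96, -2.09, -6.02 and -4.05 in the Ext1S100a4Cre tumours, against -3.98, -1.59, -2.77 and -5.13 in the WT tumours. Both groups held high and low tumours: number 2 was the highest within each host, and the lowest were Ext1S100a4Cre tumour 3 and WT tumour 4. The difference was -0.91 (SE 0.98, 95% interval -3.16 to 1.34; limma, adjusted p = 0.809), and a dimmer Dlk1 probe, well above background in 3 of 4 Ext1S100a4Cre tumours and in all 4 WT tumours, read -6.26, -4.26, -5.64 and -5.31, against -5.30, -3.81, -4.34 and -6.05 in the WT tumours, a difference of -0.49 (SE 0.57). On the brighter probe it was -1.64 without Ext1S100a4Cre tumour 2, -0.33 without Ext1S100a4Cre tumour 3, -0.32 without WT tumour 2, -1.50 without WT tumour 4 and -0.33 with normexp background correction.

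Ndn, on chromosome 7 in the cluster with Magel2 and Mkrn3, encodes necdin, a MAGE-family protein that restrains proliferation, best known in neurons. It read -5.30, 0.44, -0.64 and -1.74 in the Ext1S100a4Cre tumours, against -1.15, -0.39, 1.10 and -1.53 in the WT tumours. The range from Ext1S100a4Cre tumour 1 to WT tumour 3 was 84.3-fold, the widest of the 9 genes, and the other Ext1S100a4Cre tumours lay within or near the WT range. At the low end of that range, in Ext1S100a4Cre tumour 1, the Ndn probe read a dim 21.7 intensity units. The difference was -1.32 (SE 1.19, 95% interval -4.05 to 1.41; limma, adjusted p = 0.781). Without Ext1S100a4Cre tumour 1 it was -0.16.

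Mest, on chromosome 6, encodes an enzyme-like protein of the endoplasmic reticulum that goes with the growth of fat and mesenchymal tissue. Its levels were -3.79, -1.04, -0.68 and -1.21 in the Ext1S100a4Cre tumours, against -0.24, 0.76, -0.30 and -1.80 in the WT tumours. Ext1S100a4Cre tumour 1 stood far below the rest, and the other 3 tumours of that host lay between the WT extremes. The difference was -1.29 (SE 0.77, 95% interval -3.06 to 0.48; limma, adjusted p = 0.747), and without Ext1S100a4Cre tumour 1 it was -0.58. A dimmer Mest probe, well above background in 3 of 4 Ext1S100a4Cre tumours and 4 of 4 WT tumours, gave -1.30 (SE 0.95).

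Peg3, on chromosome 7, encodes a zinc-finger protein known in mice for its part in fetal growth and maternal behaviour. It read -2.81, -3.18, -3.07 and -3.29 in the Ext1S100a4Cre tumours, against -3.15, -3.32, -4.12 and -4.45 in the WT tumours. The 4 Ext1S100a4Cre tumours were tightly grouped, WT tumours 1 and 2 lay within or next to them, and WT tumours 3 and 4 were lower. The difference was 0.67 (SE 0.30, 95% interval -0.02 to 1.36), a mean 1.59-fold higher in the Ext1S100a4Cre tumours, with limma p = 0.0552 and adjusted p = 0.747 and an exact permutation p of 0.114.

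Plagl1, on chromosome 10, encodes a zinc-finger transcription factor that arrests the cell cycle and acts on other imprinted genes. It read 3.59, 3.12, 2.21 and 3.88 in the Ext1S100a4Cre tumours, against 3.58, 3.74, 1.76 and 2.85 in the WT tumours. In each host the third tumour was the lowest, and the groups overlapped throughout. The difference was 0.22 (SE 0.51, 95% interval -0.95 to 1.39; limma, adjusted p = 0.916). A dimmer Plagl1 probe differed by 0.06 (SE 0.18) and was much flatter, between -3.56 and -3.10 in the Ext1S100a4Cre tumours and between -3.63 and -3.01 in the WT tumours.

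**Figure D2:**
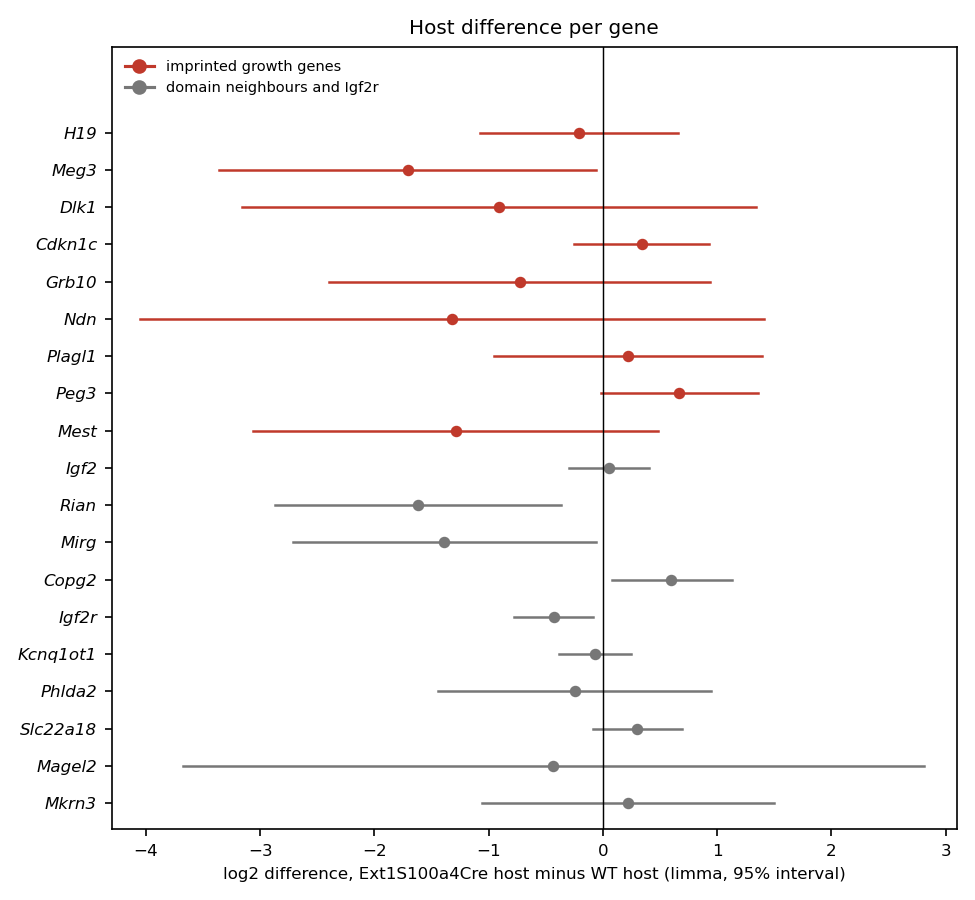
The log2 difference of each gene, Ext1S100a4Cre host minus WT host, is plotted with its 95% interval from limma for the 9 imprinted genes and for the tested genes among their domain neighbours and Igf2r. Intervals of Meg3, Rian, Mirg and Igf2r lie below 0 and that of Copg2 above it before adjustment, and no gene passed after it (adjusted p from 0.747).

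The domains these genes belong to were examined next through a list of 13 genes, made up of domain neighbours and Igf2r, of which 10 were tested. Of the 10, 4 had a higher and 6 a lower mean in the Ext1S100a4Cre tumours, and 0 passed an adjusted p of 0.05 in limma, while 3 lower and 1 higher had an unadjusted p under 0.05, beside 2.16% lower and 4.39% higher of all genes. The 3 lower ones were Rian, Mirg and Igf2r, of which Rian and Mirg lie in 1 run of transcripts with Meg3. Rtl1, Usp29 and Zim1 were well above background on too few arrays to be tested. At the Dlk1-Meg3 domain, the non-coding RNAs from the maternal copy went with Meg3. Rian, which carries clusters of small nucleolar RNAs, read -3.66, -1.58, -2.61 and -1.61 in the Ext1S100a4Cre tumours, against -0.91, -0.40, 0.06 and -1.71 in the WT tumours, a difference of -1.62 (SE 0.54; limma p = 0.0173, adjusted p = 0.747; exact permutation p = 0.0857). Mirg, which carries microRNAs, read -4.08, -2.33, -3.44 and -2.16, against -1.72, -1.35, -0.57 and -2.83 in the WT tumours, a difference of -1.39 (SE 0.57; limma p = 0.042, adjusted p = 0.747; exact permutation p = 0.114). In all 3 of these RNAs Ext1S100a4Cre tumour 1 was lowest and WT tumour 3 highest, whereas paternally expressed Dlk1 was highest in WT tumour 2 on both probes, and lowest in Ext1S100a4Cre tumour 3 on the brighter and in Ext1S100a4Cre tumour 1 on the dimmer.

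**Figure D3:**
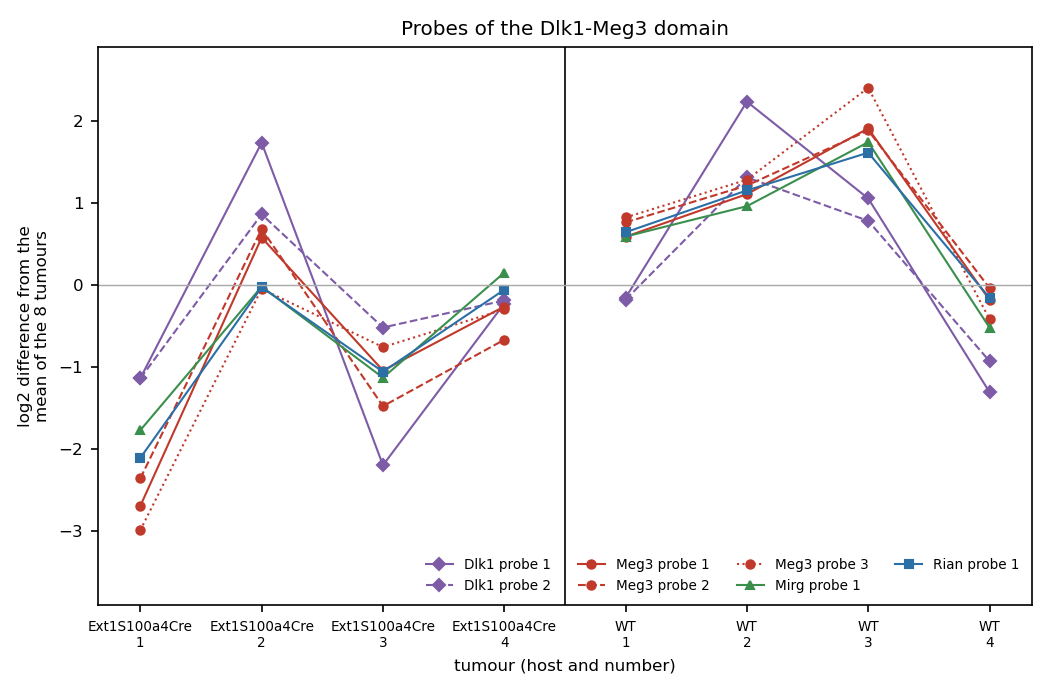
Lines join the differences from the mean of the 8 tumours (log2), probe by probe, for Meg3 (3 probes), Rian, Mirg and Dlk1 (both probes) over the 4 Ext1S100a4Cre tumours, left of the vertical line, and the 4 WT tumours, right of it. Meg3, Rian and Mirg have their lowest point in Ext1S100a4Cre tumour 1 and their highest in WT tumour 3, and Dlk1 has its highest in WT tumour 2 on both probes.

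On the distal part of chromosome 7, Igf2, the paternally expressed growth factor that shares enhancers with H19, read 1.88, 2.16, 1.79 and 1.97 in the Ext1S100a4Cre tumours, against 1.70, 2.05, 1.73 and 2.14 in the WT tumours, a difference of 0.05 (SE 0.15). The Igf2 levels were thus nearly even while H19 ranged 3.44-fold from lowest to highest tumour. Neighbours of Cdkn1c were close between hosts too: the difference was -0.07 for Kcnq1ot1, the non-coding RNA of the paternal copy that silences this cluster, -0.24 for Phlda2, which restrains placental growth, and 0.30 for the transporter gene Slc22a18. Their adjusted p-values were all at or above 0.747.

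Igf2r, the maternally expressed receptor that takes up IGF2 for breakdown, and Copg2, a coat protein gene beside Mest, were the only 2 of the 34 tested genes of the pathway list whose groups did not overlap, each on the probe that stood for its gene. Igf2r read 1.34, 1.03, 1.33 and 1.62 in the Ext1S100a4Cre tumours, against 1.76, 1.84, 1.80 and 1.65 in the WT tumours. Every Ext1S100a4Cre tumour was below every WT tumour, by a narrow gap, and the difference was -0.43 (SE 0.15; limma p = 0.0186, adjusted p = 0.747; exact permutation p = 0.0286, the smallest possible). Copg2 read 2.20, 1.47, 1.43 and 1.28, against 1.03, 1.10, 0.65 and 1.19 in the WT tumours, all higher in the Ext1S100a4Cre tumours, with a difference of 0.60 (SE 0.23; limma p = 0.029, adjusted p = 0.747; exact permutation p = 0.0286). On a dimmer Copg2 probe, well above background on all 8 arrays, the groups overlapped, at -2.53, -2.56, -2.80 and -3.34 in the Ext1S100a4Cre tumours, against -3.01, -3.39, -3.46 and -3.21 in the WT tumours (difference 0.46, SE 0.21). A count of 1 gene in each direction among 34 is to be read against the 1.14% and 3.4% of all genes without overlap.

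Near Ndn, the related MAGE-family gene Magel2 read 0.68, -2.89, -2.87 and 0.50 in the Ext1S100a4Cre tumours, against 2.04, 0.09, -4.13 and -0.84 in the WT tumours, a difference of -0.44 (SE 1.41). The extremes of Magel2 and Ndn were opposed: Ext1S100a4Cre tumour 1, the lowest for Ndn, was second highest for Magel2, and WT tumour 3, the highest for Ndn, was lowest. Mkrn3, a ubiquitin ligase gene of the same cluster, read -1.47, -2.65, -2.68 and -2.15, against -1.48, -1.86, -4.06 and -2.42 in the WT tumours, a difference of 0.22 (SE 0.56).

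Over the whole pathway list, 14 of the 34 tested genes had a higher and 20 a lower mean in the Ext1S100a4Cre tumours, beside a higher mean in 58.1% and a lower mean in 41.9% of all genes. The median difference was -0.08, and the differences ran from -1.62 to 0.60. None of the 34 passed an adjusted p of 0.05 in limma, and 1 higher and 3 lower had an unadjusted p under 0.05, the same genes as in the domain list, beside 4.39% higher and 2.16% lower of all genes. Of the genes of the list not described above, those with the smallest unadjusted p-values were Slc22a2, an organic cation transporter (difference -1.45, SE 0.81), Ascl2, a placental transcription factor (-0.33, SE 0.19), Airn, the non-coding RNA that silences Igf2r on the paternal copy (-0.25, SE 0.16), and Snrpn, a splicing protein gene (0.34, SE 0.21). Their adjusted p was 0.747.

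The 9 genes differed widely in how much they varied among the 8 tumours, whatever the host. The highest tumour exceeded the lowest by 24.4-fold for Meg3, 23.5-fold for Mest, 21.5-fold for Dlk1 and 12.1-fold for Grb10, beside the value for Ndn above, but by 4.35-fold for Plagl1 and 3.13-fold for Peg3. The dimmer Dlk1 probe spanned less than the brighter, from -6.26 to -3.81 against -6.02 to -1.59. The SD over the 8 tumours was 1.93 for Ndn, 1.56 for Dlk1, 1.42 for Meg3, 1.35 for Mest and 1.16 for Grb10, against a median of 0.31 over all genes tested. That of Ndn was above the SD of 98.9% of all genes and that of Cdkn1c, 0.40, above 64.2%. Ext1S100a4Cre tumour 1 was the lowest tumour for 5 of the 9 genes and the highest for 1, Peg3. WT tumour 2 was the highest for H19, Dlk1 and Mest, WT tumour 3 the highest for Meg3, Grb10 and Ndn and the lowest for Plagl1 and Cdkn1c, and Ext1S100a4Cre tumour 4 the highest for Plagl1 and Cdkn1c.

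**Figure D4:**
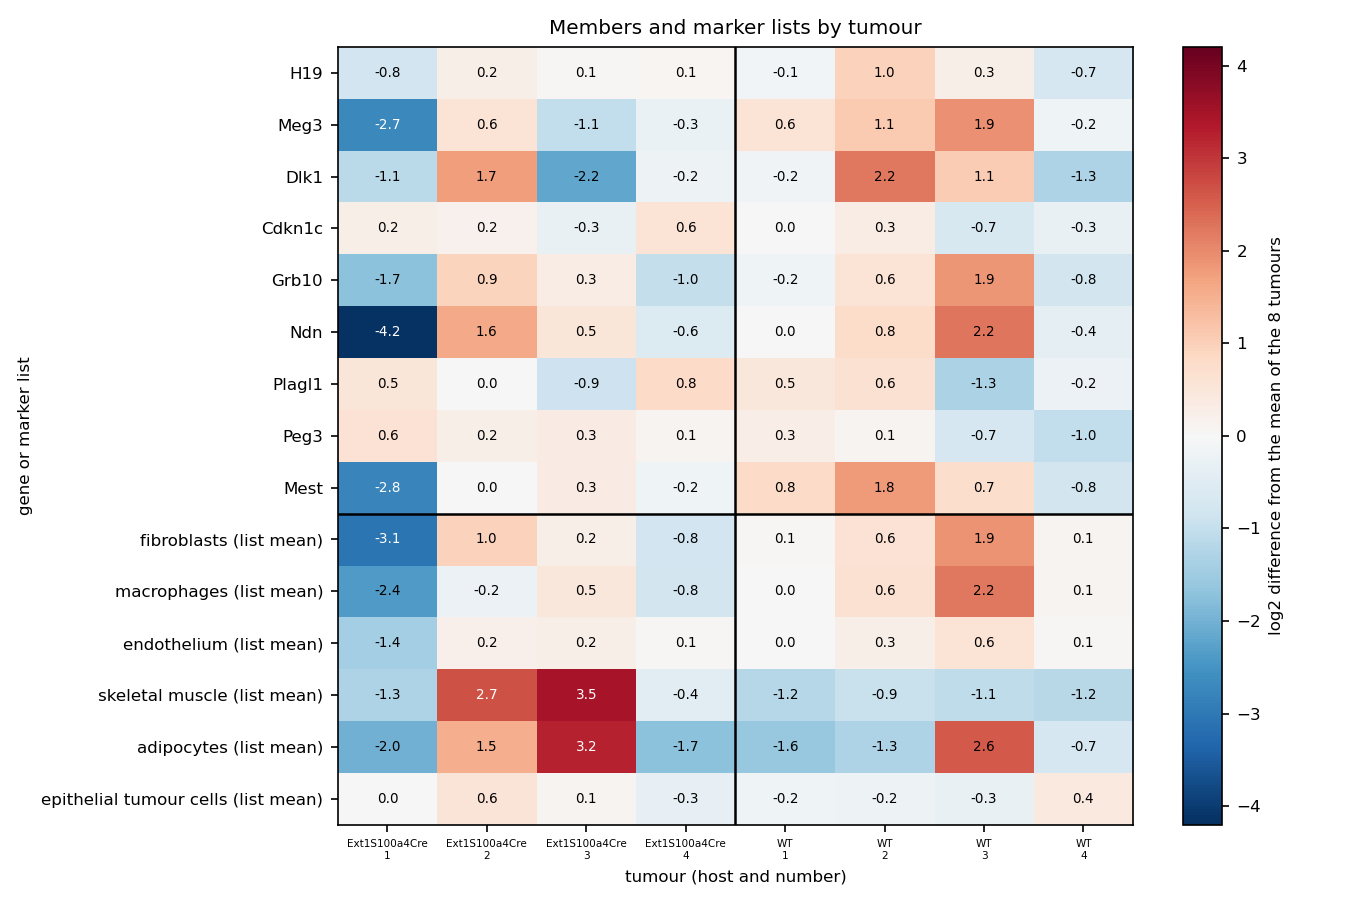
Colours give each tumour's difference from the mean of the 8 tumours (log2) for the 9 imprinted genes and for the means of marker lists, with the Ext1S100a4Cre tumours in the left columns and the WT tumours in the right. Ext1S100a4Cre tumour 1 is low for Ndn, Mest, Meg3 and the fibroblast and macrophage lists, and Ext1S100a4Cre tumours 2 and 3 are high for skeletal muscle.

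The make-up of the tumours was followed through marker lists, each summarised as the mean over its tested genes of the difference from that gene's mean over the 8 tumours. Skeletal muscle markers (17 of 22 tested, 14 of them well above background on all 8 arrays, led by Cacna1s, Tnnt3 and Mylpf) had means of -1.30, 2.66, 3.46 and -0.44 in the Ext1S100a4Cre tumours, against -1.21, -0.94, -1.07 and -1.16 in the WT tumours. Ext1S100a4Cre tumours 2 and 3 thus stood apart as rich in muscle RNA, and the other 6 lay lower. Dlk1, H19 and Meg3 are known to be on in immature muscle cells. Regulators and markers of these cells (8 of 12 tested, 4 of them well above background on all 8 arrays) had means of -0.52, 1.76, 2.00 and -0.29, against -0.60, -0.47, -1.03 and -0.87 in the WT tumours. Myod1, Mymx, Myh3, Myh8 and Chrnd were highest in Ext1S100a4Cre tumours 2 and 3. Pax7, Mymk and Cdh15 did not follow: Pax7 was highest in WT tumour 2 (-5.24), and Mymk was flat, between -3.92 and -3.68.

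The levels of the imprinted genes in the muscle-rich tumours were compared with those in the other 6 tumours. For 8 of the 9 genes both muscle-rich tumours lay inside the range of the other 6, and for Dlk1 tumour 2 lay inside it and tumour 3, at -6.02, below it, though on the dimmer Dlk1 probe tumour 3 was inside it. That range was wide, with Ext1S100a4Cre tumour 1 the lowest of the 8 tumours for 5 of the 9 genes. The same count over all genes was not made, so no conclusion is drawn from it. Because the 8 tumours fall into 2 clusters for muscle RNA, of 2 and 6 tumours, no correlation with it is given. With Ext1S100a4Cre tumours 2 and 3 left out, Ndn differed by -3.03, Meg3 by -2.34, Mest by -2.11 and Grb10 by -1.73 between hosts, with limma adjusted p-values of 0.285, 0.282, 0.304 and 0.298.

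Fibroblast markers (25 of 25 tested, led by Sparc, Col1a2 and Col1a1) had means of -3.07, 0.96, 0.24 and -0.79 in the Ext1S100a4Cre tumours, against 0.06, 0.62, 1.89 and 0.10 in the WT tumours. The groups overlapped, 24 of the 25 genes had a lower mean in the Ext1S100a4Cre tumours with 0 called, and the exact permutation p for the mean was 0.286. Not every marker followed the mean. Pdgfra (difference -0.02) and Fbln1 (-0.04) were nearly even between hosts, and Fbln2 was higher in the Ext1S100a4Cre tumours (0.24). Fbln1 was highest in Ext1S100a4Cre tumours 4 and 1, at 1.89 and 1.82. The mean of the macrophage markers (15 of 15 tested, led by Itgam, Csf1r and C1qc) ran alongside the fibroblast mean. It was -2.39, -0.24, 0.48 and -0.78 in the Ext1S100a4Cre tumours, against 0.00, 0.64, 2.20 and 0.10 in the WT tumours. Itgam itself was nearly flat, between 3.53 and 4.11, and was lowest in WT tumour 3. Endothelial markers were lowest in Ext1S100a4Cre tumour 1 as well, at -1.42. Adipocyte markers (9 of 10 tested), of interest beside Dlk1 and Mest, had means of -2.01, 1.51, 3.24 and -1.73 in the Ext1S100a4Cre tumours, against -1.60, -1.28, 2.59 and -0.72 in the WT tumours, with high tumours in both hosts. Red cell markers (7 of 10 tested) had means of 1.49, 3.01, -0.53 and -0.10 in the Ext1S100a4Cre tumours, against -0.75, -0.17, -1.18 and -1.76 in the WT tumours. The exact permutation p for the red cell mean was 0.0571, and its part in the levels of the imprinted genes was not tested.

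Across the 8 tumours, Ndn and Grb10 tracked the fibroblast mean most closely among the 9 genes, with 9 relations computed and exact permutation tests over all 40320 orderings (two-sided). For Ndn, Pearson's r was 0.99 (permutation p = 4.96e-05, adjusted over the 9 relations 0.000446) and Spearman's rho 0.98 (p = 0.000397, adjusted 0.00179). For Grb10, r was 0.92 (permutation p = 0.000397, adjusted 0.00179) and rho 0.98 (p = 0.000397, adjusted 0.00179). Leaving out the tumours farthest from the median fibroblast mean, Ext1S100a4Cre tumour 1 and WT tumour 3, left r at 0.91 for Ndn and 0.90 for Grb10 over 6 tumours (permutation p = 0.0181 and 0.00972). Both r thus stayed high without them, but these p-values over 6 tumours were not adjusted over the 9 relations. Following the fibroblast mean was common on these arrays: of 31208 genes outside that marker list with a value in every tumour, 28.9% had an unadjusted permutation p of r under 0.05 and 2.97% an r above 0.9, beside 4 and 3 of the 9 genes.

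Meg3 and Mest also went up and down with the fibroblast mean, but rested on those 2 tumours. For Meg3, r was 0.90 (permutation p = 0.00392, adjusted 0.0118) and rho 0.71 (p = 0.0576, adjusted 0.13), and without them r was 0.46 (permutation p = 0.375, 6 tumours). For Mest, r was 0.81 (permutation p = 0.0313, adjusted 0.0705) and rho 0.55 (p = 0.171, adjusted 0.243), and without them r was 0.35 (permutation p = 0.506, 6 tumours). H19 and Dlk1 had r of 0.64 and 0.51 and rho of 0.76 and 0.52, and Plagl1, Cdkn1c and Peg3 had r of -0.56, -0.54 and -0.52 and rho of -0.60, -0.50 and -0.48. For these 5 genes the permutation p of r, adjusted over the 9 relations, was 0.167 for H19 and 0.202 for each of the others, and without the same tumours r was 0.38, 0.50, -0.30, -0.27 and 0.11. All tumours share 1 array each for both measures, macrophage and endothelial markers moved with the fibroblast markers, and their part in these relations was not tested.

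**Figure D5:**
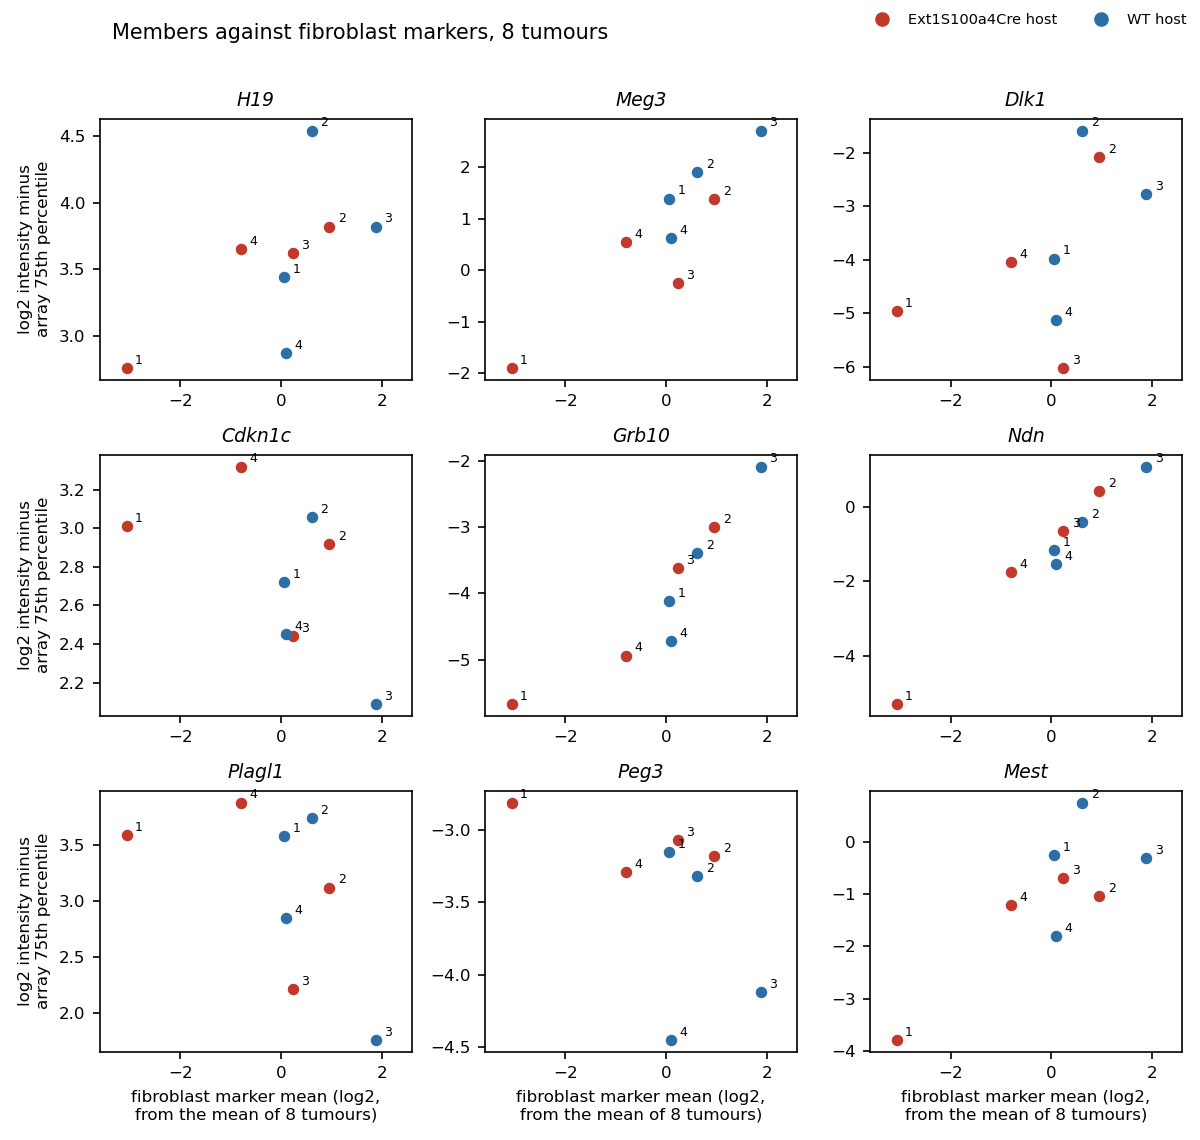
Each panel plots the level of 1 imprinted gene (log2 processed signal minus the array's 75th percentile) against the mean of the 25 fibroblast markers (log2 difference from the mean of the 8 tumours), 1 point per tumour. Ndn (r = 0.99) lies close to a line over the whole range, Grb10 (r = 0.92) rises with the markers in nearly the same order, and for Meg3 (r = 0.90) the line depends on Ext1S100a4Cre tumour 1 and WT tumour 3.

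Within the pathway list, 34 relations with the fibroblast mean were computed, and 4 had a permutation p of r under 0.05 after adjustment over the 34. Before adjustment 11 of 34 (32.4%) did, close to the 28.9% of all genes. These genes were singled out after their values were seen: Sgce, a sarcoglycan (r = 0.98, 0.87 without the same 2 tumours), Begain (0.93 and 0.94), Osbpl5, a lipid-binding protein gene (0.91 and 0.86), and Sfmbt2, a Polycomb-group gene that ran the other way (-0.91 and -0.83). Their adjusted permutation p-values were 0.00169 for Sgce and 0.00991 for the others. By Spearman's rho the set differed: Sgce (0.98), Begain (0.90) and Sfmbt2 (-0.90) passed again, Osbpl5 (0.86, adjusted permutation p = 0.052) did not, and Dio3 (0.90) and Ube3a (-0.93), whose r of 0.60 and -0.71 had not passed, did (adjusted permutation p = 0.031 each). Over the list, 20 of 34 had r above 0, as did 6 of the 9 imprinted growth genes.

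The Y-linked genes divided the Ext1S100a4Cre tumours as the muscle markers did, with tumours 2 and 3 high and tumours 1 and 4 low for both, while the WT tumours were high for Y-linked genes and low for muscle. The Y-linked mean was -3.43 in Ext1S100a4Cre tumour 1 and -3.29 in tumour 4, against 1.31 and 1.09 in tumours 2 and 3 and 0.42 to 2.44 in the WT tumours. Each of the 4 Y-linked genes was well above background in 2 of 4 Ext1S100a4Cre tumours and in 4 of 4 WT tumours. The implanted cells were shared by all 8 tumours, the labels give no host sex, and the source of this difference was not tested. Without Ext1S100a4Cre tumours 1 and 4, the median difference of the 9 genes was 0.05, with Ndn at 0.39, Grb10 at 0.27, Mest at -0.47 and Meg3 at -1.09. Leaving out tumours 1 and 4 and leaving out tumours 2 and 3, as above, are the 2 sides of this 1 division, whose part in the host differences was not tested.

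The arrays lay in 2 rows of a slide, each with 2 tumours of either host, and differences were also taken within each row. Meg3 differed by -1.91 in row 1 and -1.52 in row 2, Ndn by -1.66 and -0.97, Dlk1 by -0.74 and -1.08, and Grb10 by -0.58 and -0.88, so these kept their sign. Peg3 (0.24 and 1.10) and Cdkn1c (0.07 and 0.61) did so too. Mest (-2.67 and 0.10), H19 (-0.70 and 0.29) and Plagl1 (-0.30 and 0.74) changed sign between rows. With 4 tumours in a row, correlations within rows are not given.

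The named genes whose pattern over the 8 tumours was most like that of each imprinted gene, by Pearson's r among 15442 genes, are given as a description. Ndn had the closest partners, with r of 0.997 for Gpx7, 0.996 for Adgra2 and 0.996 for Fstl1, and 599 genes above 0.9. Grb10 went with Dok1 (0.983), Tnfsf11 (0.982) and Zfp521 (0.977). Meg3 went with Zfpm2 (0.990), Vasn (0.988) and Col27a1 (0.986), the last a fibrillar collagen.

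Mest went with Dzip1l (0.993) and with Tcf15 (0.976) and Meox1 (0.975), which are transcription factors of the embryonic somite. Plagl1 went with Zfp36l1 (0.987), the embryonic globin gene Hbb-y (0.981) and Igf2bp2 (0.980), which binds Igf2 RNA among others. Cdkn1c went with Cep19 (0.976), Cdk18 (0.971) and Crip3 (0.970), and Peg3 with Elovl4 (0.979), Ndufa4 (0.960) and Coq10a (0.945). Dlk1 and H19 had few close partners: Slc6a8 (0.939), Angptl2 (0.924) and Dusp5 (0.908) for Dlk1, and Tmsb15a (0.934), Tfb2m (0.913) and Dzip1l (0.897) for H19. With 8 tumours and so many genes, high values of r are common, and nothing follows from them about shared control.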

How the data were processed

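Whole-tumour RNA (0.5 µg) from 8 MC38 tumours was hybridised to 1-colour Agilent arrays. The deposited files hold scanner output: per the file headers, Feature Extraction 10.7.3.1 made the processed signal intensity, with its background subtracted, and the well-above-background flags (a 0 or 1 score); the submitters' processing notes name version 9.1. The authors' deposited value table equalled the scanner intensity within 0.01% for 100% of values, so its values are linear, neither centred nor rescaled.

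Of 62976 spots, 3671 controls were left out. Intensities were taken to log2, each array's 75th percentile over its spots was subtracted, spots of a probe were averaged, and a probe had to exceed background clearly on 4 or more of the 8 arrays, which 39716 did, the brightest standing for its gene. limma 3.58.1 in R 4.3.3 fitted 31281 genes, of which 17240 carried a symbol. Exact permutation tests (two-sided) enumerated all assignments. The fit was tested on simulated data.

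Gene names came from RefSeq's table through unversioned transcripts: 32994 of 56605 probes matched, 23611 did not. That table and the array design use different builds, so no coordinates or sequences are given. Named were all 9 members, their domain neighbours and Igf2r, the 4 other imprinted genes with the smallest p, the 3 genes most like each member and up to 3 leading genes per marker list. The members and lists were chosen with earlier results of these data known. Same-numbered tumours had correlations of their deviations of 0.49, -0.16, 0.59 and -0.24. These mixed values cannot settle whether the numbers pair the tumours. The labels state no pairing, and the tumours were treated as unpaired. Alternatives in background correction, scaling, filter, probe summary, variance model and left-out tumours are given at the end. The number of arrays limits the precision.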

Additional observations from a re-analysis of the deposited data

Results flagged for a closer look

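Mest was flagged because 1 tumour lay far from the others of its group: Ext1S100a4Cre tumour 1 read -3.79, and the other 3 tumours of that host read -1.21 to -0.68, a gap of 0.832 of the group's range, above Dixon's critical value for 4 tumours. The endothelial marker mean was flagged in the same tumour, at -1.42 against 0.06 to 0.24 in the other 3, a gap of 0.892 of the range. Of 66 groups examined, 2 were flagged, and chance flags about 5% of groups. Ext1S100a4Cre tumour 1 was also the lowest of the 8 for the fibroblast mean (-3.07) and macrophage mean (-2.39), whose part in the Mest value was not tested.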

How the results depend on the processing

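No imprinted growth gene and no other imprinted gene was called at an adjusted p of 0.05 under any alternative run. Over all genes, 0 were called, against 1 with normexp, 11 without Ext1S100a4Cre tumours 1 and 4, 3 without Ext1S100a4Cre tumour 1 and WT tumour 3, and 0 to 2 when each tumour was left out in turn (2 without WT tumour 3). The median difference of the 9 genes (-0.73) was -1.17 to -0.16 over those single omissions, -0.22 with normexp, 0.05 without Ext1S100a4Cre tumours 1 and 4, 0.08 without Ext1S100a4Cre tumour 1 and WT tumour 3, and 0.10 in slide row 2 alone. With the replicate number as a block it was -0.73 again with 0 calls, and whether the numbers pair the tumours is not known. The median of the other imprinted genes (-0.08) was -0.33 on the unscaled deposited values and -0.21 without Ext1S100a4Cre tumours 2 and 3. Meg3 (-2.34 to -0.75), Dlk1 (-1.64 to -0.32), Peg3 (0.24 to 1.10) and Cdkn1c (0.07 to 0.61) kept their direction in all 25 alternatives. On the unscaled values the sign turned for Igf2 (-0.20), Plagl1 (-0.03) and Mkrn3 (-0.03), and with quantile scaling for Igf2 (-0.01). Without Ext1S100a4Cre tumours 1 and 4 it turned for Plagl1 (-0.32), Mkrn3 (-0.21), H19 (0.05), Grb10 (0.27) and Ndn (0.39). Without Ext1S100a4Cre tumour 1 and WT tumour 3 it turned for Plagl1 (-0.32), Mkrn3 (-0.57), H19 (0.08), Grb10 (0.23), Ndn (0.38) and Kcnq1ot1 (0.02), and r with the fibroblast mean was 0.46 for Meg3, 0.35 for Mest and 0.11 for Peg3. Without Ext1S100a4Cre tumours 2 and 3 it turned for Magel2 (1.30) and Phlda2 (0.38). In slide row 1 alone, added after seeing the data, it turned for Plagl1 (-0.30) and Mkrn3 (-0.39), and in row 2 alone for Igf2 (-0.05), H19 (0.29), Mest (0.10), Magel2 (1.30), Phlda2 (0.79) and Kcnq1ot1 (0.02). Leaving out single tumours gave -0.02 to 0.13 for Igf2, -0.19 to 0.55 for Plagl1, -0.31 to 0.55 for Mkrn3, -0.47 to 0.08 for H19, -1.58 to 0.48 for Magel2 and -0.55 to 0.06 for Phlda2. These causes were not tested. Dim probes (Dlk1, Grb10) and the dim Ndn reading of Ext1S100a4Cre tumour 1 lie near background, where log2 differences are least exact.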
